A study of Mus musculus with 3 samples.

Results

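Mature osteoblasts, the cells that lay down type I collagen matrix on bone and load it with mineral, were picked out of 3 single-cell RNA libraries of sorted mouse marrow stroma. They were recognised by RNA of Col1a1, a chain of type I collagen, and of Ibsp, bone sialoprotein. A barcode was kept with at least 500 genes, at least 1000 unique molecular identifiers (UMIs, each standing for 1 captured RNA molecule) and at most 10% mitochondrial UMIs. A kept barcode was a member when Col1a1 made up at least 100 and Ibsp at least 5 of every 10000 UMIs, no UMI came from the leukocyte gene Ptprc, and at most 1% of UMIs came from Hba-a1, Hba-a2, Hbb-bs and Hbb-bt, the hemoglobin genes. Of 8336 kept barcodes, 352 (4.22%) met the rule. The members were thus chosen by their measured UMIs of Col1a1, Ibsp, Ptprc and hemoglobin, so these genes describe the choice, and all other genes of the cells are given as descriptions, with no test.

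Osteoblasts arise from marrow stromal progenitors under the transcription factors Runx2 and Sp7 (osterix). They secrete a matrix of type I collagen and acidic proteins, and late in maturation they make osteocalcin, the product of Bglap, which binds mineral. Those that become buried in the matrix turn into osteocytes, which touch surface osteoblasts through long processes joined by channels of connexin 43 (gene Gja1).

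The study compared marrow mesenchymal stromal cells of WT mice with those of 2 transgenic models that express mutant connexin 43 directed to osteocytes. In R76W the mutant inhibits gap junctions, which join neighbouring cells, and in D130, read here as the Δ130–136 model of the study, it blocks both gap junctions and hemichannels, which open to the outside of 1 cell. All mice were C57BL/6 and 6 to 8 weeks old, and no group received a treatment. Marrow was flushed, bone fragments were digested with collagenase, red cells were lysed, and cells were sorted on a stain for the blood and vessel antigens CD31, CD45 and Ter119 and for CD51 with PDGFRα, before 10x 3′ v3 library preparation. Each genotype was 1 library. The labels do not state how many mice it pools or which promoter drives each transgene, and a genotype cannot be told apart from its library, sort or day. No test between genotypes was possible. Intervals below are exact 95% intervals that cover counting error only.

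The WT library held 125 members among 4371 kept barcodes (2.86%, Clopper-Pearson interval 2.39% to 3.40%). R76W held 91 among 1790 (5.08%, 4.11% to 6.21%), and D130 held 136 among 2175 (6.25%, 5.27% to 7.35%). The denominators include 1923 hemoglobin-rich barcodes in WT, 233 in R76W and 422 in D130. Over stromal barcodes alone (members, cells with Alpl and Wif1 UMIs, and LepR+ cells with Lepr and high Cxcl12), members were 7.57% of 1651 in WT (6.34% to 8.95%), 7.21% of 1262 in R76W (5.85% to 8.78%) and 11.1% of 1230 in D130 (9.36% to 12.9%). The WT and R76W intervals overlapped, and the D130 interval lay above both. How many osteoblasts the digestion and sort released in each library was not measured.

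Members were deeply covered cells at the median. Their median UMI count was 22418 in WT, 29277 in R76W and 31796 in D130, against 5741.5, 7688 and 8152.5 in LepR+ stromal cells, and their summed depth was 2929395, 2842770 and 4374054 UMIs. The shallowest member had 1274, 1113 and 1110 UMIs, and 4, 13 and 5 members had under 5000. The median mitochondrial share was 2.22%, 2.93% and 3.51%. Libraries shared 4 barcodes (R76W and WT), 6 (D130 and WT) and 8 (D130 and R76W), none of them a member's. At the edge of the rule, the nearest members to the Col1a1 limit stood at 119.8 in WT, 173.5 in R76W and 110.3 in D130 per 10000 UMIs, and the nearest barcodes below it that met the other criteria at 76.3, 64.3 and 98.4. The Ibsp limit separated 5.16, 5.07 and 5.05 inside from 4.81, 2.62 and 4.68 outside. Failing on Ibsp alone kept out 17 WT, 6 R76W and 16 D130 barcodes, whereas failing on Col1a1 alone kept out 1366, 1103 and 902.

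The label was checked against its markers. Levels are given as CPM, the UMIs of a gene per 1000000 UMIs summed over the members of a library. They are shares of each library's own member RNA. Ifitm5, an osteoblast membrane protein of mineralising bone, was at 895.7 CPM in WT, 765.8 in R76W and 856.4 in D130, against 1.06 to 2.33 CPM in LepR+ cells. Car3, a carbonic anhydrase, was at 2282.4, 2211.9 and 2522.6 CPM, and Smpd3, a sphingomyelinase needed for bone mineralisation, at 967.1, 1032.4 and 1214.4 CPM. In LepR+ cells neither exceeded 12.1 CPM. Each of Bglap, Ifitm5, Car3 and Smpd3 had a UMI in at least 91.2% of the members of every library, and so did not go against the label in any library. Ibsp alone did not set members apart. It was at 6397.6, 4728.8 and 4462.9 CPM in members and at 7043.3, 7400.3 and 5203.8 CPM in LepR+ cells.

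**Figure D1:**
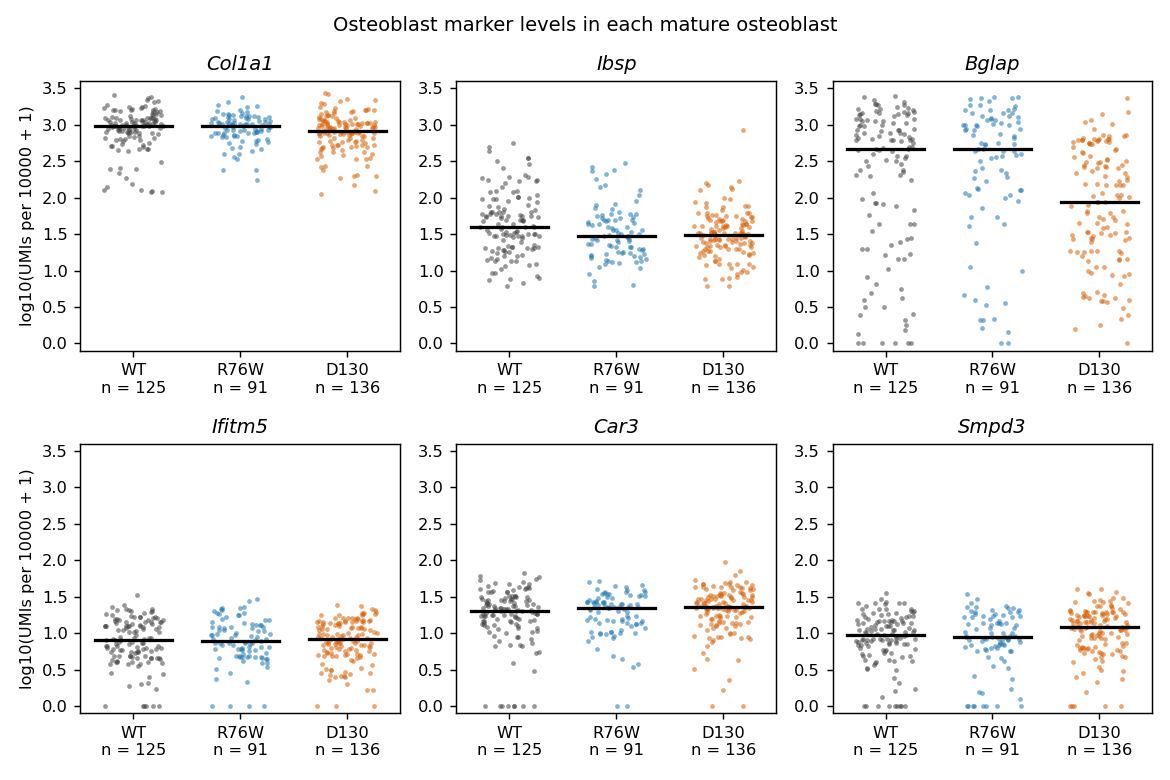
Osteoblast markers in single members: each point is 1 cell, the vertical axis is log10 of UMIs per 10000 plus 1, the horizontal axis is the library, and the black line is the median. Ifitm5, Car3 and Smpd3 lie at like heights in the 3 libraries, while the median of Bglap in D130 (86.7 per 10000) lies below those of WT (457) and R76W (469).

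Genes far higher in members than in LepR+ stromal cells included, beside the osteocalcin genes, genes of the matrix and genes of other kinds. Cthrc1, a secreted collagen triple helix repeat protein, stood at 1108.1, 823.5 and 1068.1 CPM in WT, R76W and D130 members and at 0.423, 0.259 and 1.19 CPM in LepR+ cells. Its log2 ratio of members over LepR+ cells was at least 8.93 in every library. Among genes of other kinds, that ratio was at least 8.82 for Fat3, 7.80 for Cgref1 and 7.56 for Lipc. The lowest such ratio over the 3 libraries was 8.51 for Col11a2, a fibrillar collagen chain, 8.18 for the collagen gene Col22a1, 8.20 for the prohormone-processing carboxypeptidase Cpe and 8.05 for its relative Cpz. Against the Alpl and Wif1 stromal cells, an earlier osteolineage gate, the leading genes were Col11a2 (5.94), Slc13a5, a citrate transporter (5.77), Bglap (5.61) and Bglap2 (5.57). The genes named here were not in the rule, but the cells were selected on Col1a1 and Ibsp. These ratios therefore describe the gated cells and are no test.

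Osteocalcin RNA was not part of the rule. Among the osteoblast markers, Bglap differed most between D130 and each of the other libraries. Bglap was at 70120.6 CPM in WT (69817.7 to 70424.5), 82547.7 in R76W (82214.0 to 82882.3) and 27791.4 in D130 (27635.4 to 27948.1). The log2 ratio was −1.34 for D130 over WT (interval −1.35 to −1.32), −1.57 for D130 over R76W and 0.24 for R76W over WT. The quartiles over cells were 33.6 and 1052 per 10000 in WT, 106 and 1131 in R76W and 17.6 and 369 in D130, so the 3 ranges overlapped widely. Bglap at 500 or more per 10000 was reached by 58 of 125 WT members (46.4%, 37.4% to 55.5%), 44 of 91 in R76W (48.4%, 37.7% to 59.1%) and 28 of 136 in D130 (20.6%, 14.1% to 28.4%). Conversely, 47 D130 members (34.6%) lay between 10 and 100, against 21 in WT (16.8%) and 9 in R76W (9.89%). Below 10 the shares were alike, at 16.8%, 14.3% and 16.9%.

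Among members at 100 or more per 10000, a group cut by Bglap itself and so no separate evidence, it was at 89244.8 CPM in WT, 97708.9 in R76W and 49309.7 in D130. In Alpl and Wif1 stromal cells it was at 1430.7, 1085.3 and 341.5 CPM, though RNA set free by osteoblasts can add to such levels and its part was not tested.

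Mouse chromosome 3 carries 3 osteocalcin genes in a row on the minus strand (GRCm38): Bglap (ENSMUSG00000074483) at 88383501 to 88384464, Bglap2 (ENSMUSG00000074486) at 88377736 to 88378699 and Bglap3 (ENSMUSG00000074489) at 88368616 to 88372743. Bglap2 was at 24657.3, 35612.8 and 10555.9 CPM in WT, R76W and D130, which gave log2 ratios of 0.53 for R76W over WT and −1.22 for D130 over WT. These counts cannot be fully separated from those of Bglap, because 212 of 311 windows of 90 bases (68.2%) in the last 400 transcript bases of Bglap also occur in Bglap2. Bglap3 shared 0 of those windows. It was at 1459.0 CPM in WT (1415.6 to 1503.4), 476.3 in R76W (451.3 to 502.4) and 724.0 in D130 (699.0 to 749.7), with log2 ratios of −1.61 for R76W over WT and −1.01 for D130 over WT.

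Bglap3 therefore departed from Bglap in the R76W library, although it followed Bglap closely from cell to cell within each library. For D130 over WT both were lower (log2 ratios of −1.34 for Bglap and −1.01 for Bglap3). The Spearman correlation of Bglap3 with Bglap was 0.97 over 125 WT members, 0.93 over 91 R76W members and 0.94 over 136 D130 members, values that share library, depth and UMI total. For every 100 Bglap UMIs, Bglap3 gave 2.08 in WT members, 0.577 in R76W members and 2.61 in D130 members. The ratio was narrow over cells with at least 50 Bglap UMIs: the quartiles were 1.61 and 2.25 in 91 WT members, 0.429 and 0.721 in 64 R76W members, and 1.94 and 3.24 in 98 D130 members. The quartile range of R76W did not meet the other two. In Alpl and Wif1 stromal cells the same ratio was 2.38 in WT (102 Bglap3 UMIs), 0.680 in R76W (19 UMIs) and 2.03 in D130 (18 UMIs). Per 100 Bglap UMIs, Bglap2 held 35.2, 43.1 and 38.0. Reads were not examined, so a difference between libraries in the alleles of this cluster, or in how reads were assigned to its genes, cannot be told apart from a difference in Bglap3 RNA.

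The sequences before the start of Bglap and of the first Bglap3 start region are shown because these neighbours were so tightly linked across cells and yet differed in their ratio between libraries. Both are the 250 bases before a RefSeq start, on the minus strand of GRCm38.p6, printed 5′ to 3′ in the direction of transcription, at chr3:88384467-88384716 for Bglap and chr3:88372742-88372991 for Bglap3. Capitals mark ACCACA, the core letters bound by Runx factors, searched on both strands.
Bglap: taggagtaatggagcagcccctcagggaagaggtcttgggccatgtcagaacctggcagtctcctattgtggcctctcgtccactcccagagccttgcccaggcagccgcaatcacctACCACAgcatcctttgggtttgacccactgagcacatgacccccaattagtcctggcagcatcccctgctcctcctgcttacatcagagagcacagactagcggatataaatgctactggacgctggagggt
Bglap3: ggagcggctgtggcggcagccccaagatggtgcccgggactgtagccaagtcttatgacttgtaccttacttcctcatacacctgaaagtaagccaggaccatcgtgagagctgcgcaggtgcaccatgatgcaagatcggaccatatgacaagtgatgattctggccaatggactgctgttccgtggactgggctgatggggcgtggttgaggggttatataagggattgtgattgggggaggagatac
Bglap holds 1 ACCACA, 132 to 127 bases before the start, and Bglap3 holds 0. The letters occur in 14.0% of 32851 such windows of the genome's genes, so 1 match in 250 bases does not by itself show binding. Whether it is bound was not tested here. TATAAA lies 27 to 22 bases before the Bglap start, against 12.4% of all windows with a match anywhere. The Bglap3 window holds 0 of these exact letters, but near its end it reads ttatataagg, a near form that the search did not count. What either stretch does was not tested. The E-box letters CANNTG occur 1 time in Bglap and 4 times in Bglap3, and in 66.2% of all windows.

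**Figure D2:**
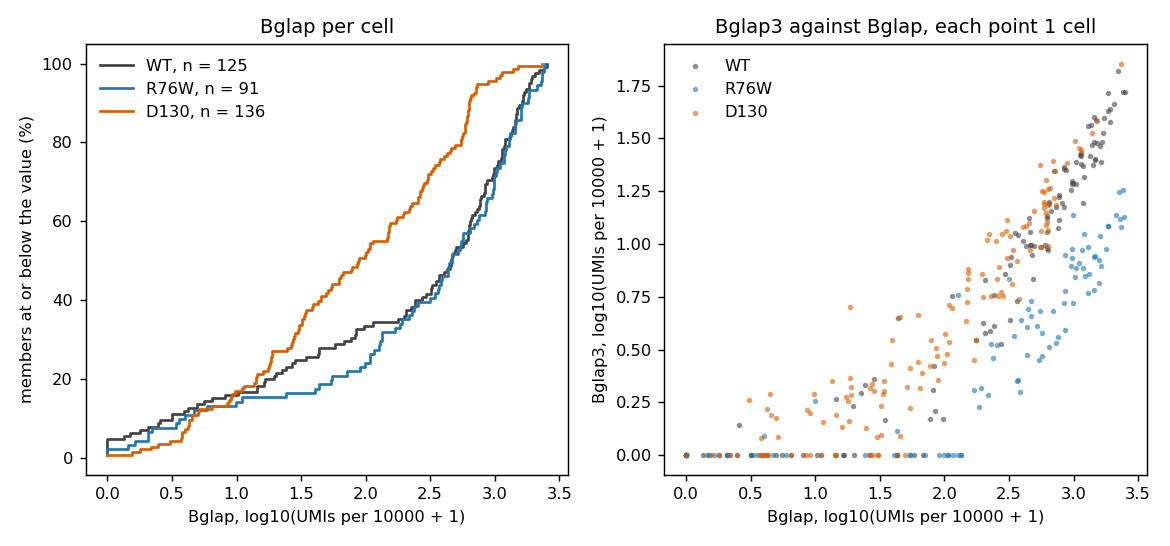
Osteocalcin genes in single members: on the left, the percentage of members (vertical axis) at or below each level of Bglap (horizontal axis, log10 of UMIs per 10000 plus 1), 1 line per library. On the right, Bglap3 against Bglap on the same scale, each point 1 member. The D130 line climbs to the left of the other lines, and R76W points lie under those of WT and D130 at high Bglap.

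Members were not uniform, and Bglap ordered part of their variation the same way in each library. Ranked by Bglap and cut into terciles (bounds 0 to 96.4, 113.4 to 817.9 and 835.8 to 2518.0 per 10000 in WT), WT members held Runx2, the master regulator of the osteoblast lineage, at 1156.6, 570.0 and 444.8 CPM from least to most Bglap. In R76W (terciles up to 183.1, 951.5 and 2441.5) Runx2 was at 1013.1, 750.4 and 370.8 CPM, and in D130 (up to 29.6, 260.8 and 2314.8) at 1521.3, 1178.0 and 689.8 CPM. Members with more Bglap thus had less Runx2, with Spearman correlations of −0.45, −0.43 and −0.44. Panx3, a pannexin channel of maturing osteoblasts, was at 114.7, 11.2 and 0.969 CPM in WT, 101.3, 19.1 and 5.05 in R76W, and 118.4, 41.3 and 11.9 in D130. Tnc, the matrix glycoprotein tenascin C, was also graded, from 1221.7 to 48.5 CPM in WT, 683.3 to 53.0 CPM in R76W and 802.3 to 63.8 CPM in D130.

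Ibsp followed the low-Bglap side too. It was at 14490.3, 5072.9 and 2947.1 CPM over the WT terciles, 11209.4, 3320.6 and 3347.5 in R76W, and 7711.4, 3442.3 and 2895.7 in D130. Since Ibsp was part of the rule, cells with little of it are cut off, and the relation holds within that range only. Sparc, osteonectin, a collagen-binding matrix protein, had the opposite gradient, from 31476.8 to 45292.4 CPM in WT, 29677.1 to 41523.0 CPM in R76W and 25758.6 to 45611.3 CPM in D130. Serpinf1, the secreted factor PEDF whose loss in people impairs mineralisation, was likewise higher toward the Bglap-rich tercile, from 2735.0 to 4437.6, from 1982.4 to 2948.9 and from 1052.6 to 2635.3 CPM. Dcn, the small proteoglycan decorin, and Col2a1, best known as the collagen of cartilage, also correlated positively (0.53, 0.51 and 0.30 for Dcn, and 0.40, 0.49 and 0.34 for Col2a1). Cells with more Bglap had more UMIs as well (correlations 0.35, 0.43 and 0.26), and the part of depth in these relations was not tested.

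**Figure D3:**
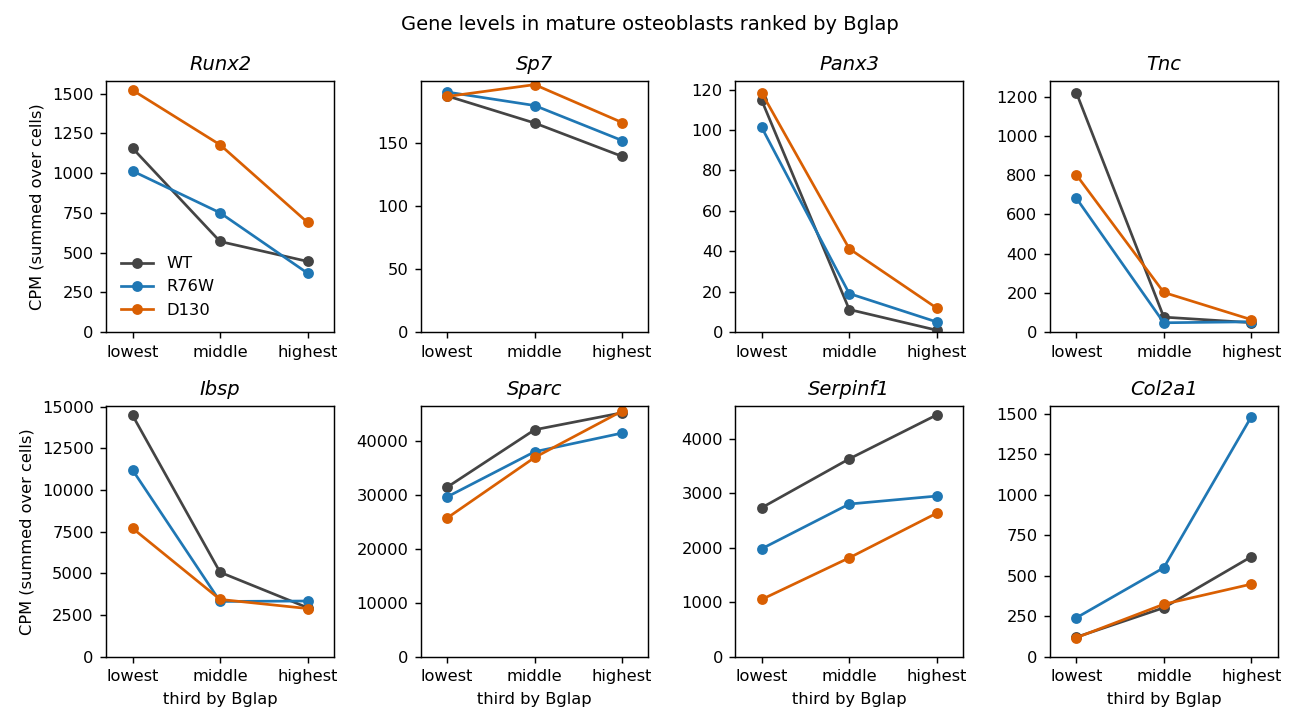
CPM of 8 genes summed over the lowest, middle and highest of 3 equal groups of members ranked by Bglap (horizontal axis), 1 line per library. Runx2, Sp7, Panx3, Tnc and Ibsp are lower and Sparc, Serpinf1 and Col2a1 higher in the highest group than in the lowest, in each library. The bounds of the groups differ between libraries.

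Differences between libraries over all genes set the scale for what follows. Of 8621 genes measured in members (at least 60 UMIs, in at least 10 cells), 447 (5.19%) were at least 1.5 times higher and 781 (9.06%) at least 1.5 times lower in R76W than in WT. In D130 over WT 1097 (12.7%) were higher and 346 (4.01%) lower, and in D130 over R76W 1441 (16.7%) were higher and 347 (4.03%) lower. The median log2 ratio was −0.06, 0.17 and 0.24, respectively. With TMM scaling, which brings those medians to 0.00, 0.03 and 0.04, the split was 581 higher and 565 lower for D130 over WT, and 682 and 606 for D130 over R76W. Of the 8621 genes, 3800 were more abundant in hemoglobin-rich barcodes. Without them 370 were higher and 224 lower for R76W over WT, 771 and 188 for D130 over WT, and 722 and 294 for D130 over R76W. Weighting each cell equally gave 889 higher and 1075 lower for R76W over WT and 1647 and 716 for D130 over R76W. Past 1.5-fold is a size and not a test, and each list below is to be read against these percentages and medians.

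The main fibrillar collagens were level. Col1a1 was at 99668.0, 102849.3 and 90147.9 CPM in WT, R76W and D130, and Col1a2 at 71155.3, 78639.8 and 72083.7. Of 14 collagen genes of bone matrix, R76W had 0 past 1.5-fold higher and 1 lower than WT (median 0.04), and D130 had 5 higher and 0 lower (median 0.27). The 5 were Col3a1, Col12a1, Col6a1, Col6a2 and Col6a3, chains more typical of soft connective tissue and of the bone surface. Col3a1 was at 71.3, 57.7 and 336.8 CPM (log2 ratio 2.22 for D130 over WT, 2.03 to 2.45) and was found in 15.2%, 31.9% and 43.4% of members. One D130 cell held 24.5% of its UMIs, and without the top cell of each library the ratio was 2.21. Fibroblast and tendon markers moved with these collagens: of 11 listed, 5 were measured, and 4 were higher and 0 lower in D130 than in WT (median 2.29, and 2.14 with TMM scaling). Their part in the collagen values was not tested. Col12a1 was at 72.0, 61.2 and 164.8 CPM (1.18 for D130 over WT).

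Col12a1 and the type VI collagens were concentrated in members with little Bglap, of which D130 had more, with Spearman correlations with Bglap from −0.29 to −0.58. Col3a1 did not follow Bglap from cell to cell (0.03, 0.01 and −0.08), and a single cell held 23.9% of its UMIs in WT and 31.7% in R76W. Below 100 Bglap per 10000, Col12a1 was at 268.2, 237.5 and 315.5 CPM in WT, R76W and D130, and at or above it at 16.6, 28.4 and 34.5. Summed Col3a1 was at 133.3, 112.0 and 512.7 CPM below and 53.8, 47.6 and 184.6 above, so its D130 level was the highest in both bands. For Col6a1 the D130 over WT log2 ratio was 1.16 over all members and −0.12 among those at 100 or more.

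Among 19 measured noncollagenous matrix genes, R76W had 0 higher and 2 lower than WT (median −0.15), and D130 had 6 higher and 3 lower (median 0.19). The 3 lower in D130 were Bglap, Bglap2 and Bglap3. With TMM scaling the D130 counts were 3 higher and 4 lower (median 0.05), and the Spp1 ratio given next was 0.49 for D130 over WT in place of 0.64. The phosphoprotein Spp1 (osteopontin) was at 3207.8, 2277.4 and 4992.4 CPM in WT, R76W and D130, and 1 cell held 35.6% of the R76W UMIs. Its log2 ratio of R76W over WT was −0.49, and −0.93 without the top cell of each library. Serpinf1, which is not one of these 19 genes, was at 3717.8, 2718.5 and 1896.9 CPM (log2 ratio −0.45 for R76W over WT and −0.97 for D130 over WT). It was lower in D130 both below 100 Bglap per 10000 (2735.0 in WT, 1262.1 in D130) and above (3995.3 and 2445.8). Fmod, the proteoglycan fibromodulin, was at 12.3, 16.5 and 63.8 CPM (2.29 for D130 over WT). Sparc (40900.9, 38023.8 and 36928.2 CPM), Bgn and Dcn stayed within 1.5-fold.

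The mineralisation genes were nearly level. Of 14 measured, R76W had 0 higher and 2 lower than WT, and D130 had 2 higher and 1 lower, with medians of −0.07 and 0.08 (−0.06 for D130 with TMM). Alpl, the phosphatase that frees phosphate for mineral, was at 380.3, 532.9 and 438.3 CPM in WT, R76W and D130. The phosphatase Phospho1 stood at 6.83, 6.33 and 11.7 CPM, and Phex, the osteoblast and osteocyte endopeptidase of phosphate control, at 226.7, 265.6 and 230.4. The citrate transporter Slc13a5 was at 240.7, 201.9 and 222.2 CPM. Panx3 was one of the higher genes in D130, at 30.4, 27.8 and 52.6 CPM and in 22.4%, 30.8% and 52.9% of members.

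Osteoblast transcription factors were level between R76W and WT, with 0 of 15 measured genes past 1.5-fold either way. In D130 over WT 5 were higher and 0 lower, with a median of 0.36 against 0.17 for all genes. With TMM scaling 3 were higher and 0 lower (median 0.21), with Runx2 at 0.59, still past 1.5-fold. Runx2 was at 655.1 CPM in WT (626.1 to 685.1), 638.1 in R76W (609.1 to 668.2) and 1097.8 in D130 (1067.0 to 1129.3), a log2 ratio of 0.74 for D130 over WT. D130 was the highest library in each Bglap band. Below 100 per 10000 Runx2 was at 1156.6, 1093.5 and 1525.8 CPM, and above at 513.5, 553.3 and 727.7. Sp7 was at 161.5, 170.3 and 182.9 CPM, and Mef2c, a regulator of osteocyte genes, at 801.9, 765.1 and 953.8. Of the other higher genes, Lef1, Snai2 and Dlx6 were at no more than 19.7 CPM in any library.

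Runx2 was no marker of these cells: it was at 1894.6, 2269.0 and 1560.0 CPM in LepR+ cells, above the members of the same library in each case. Sp7 was at 27.1, 17.3 and 21.8 CPM there, below the members.

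**Figure D4:**
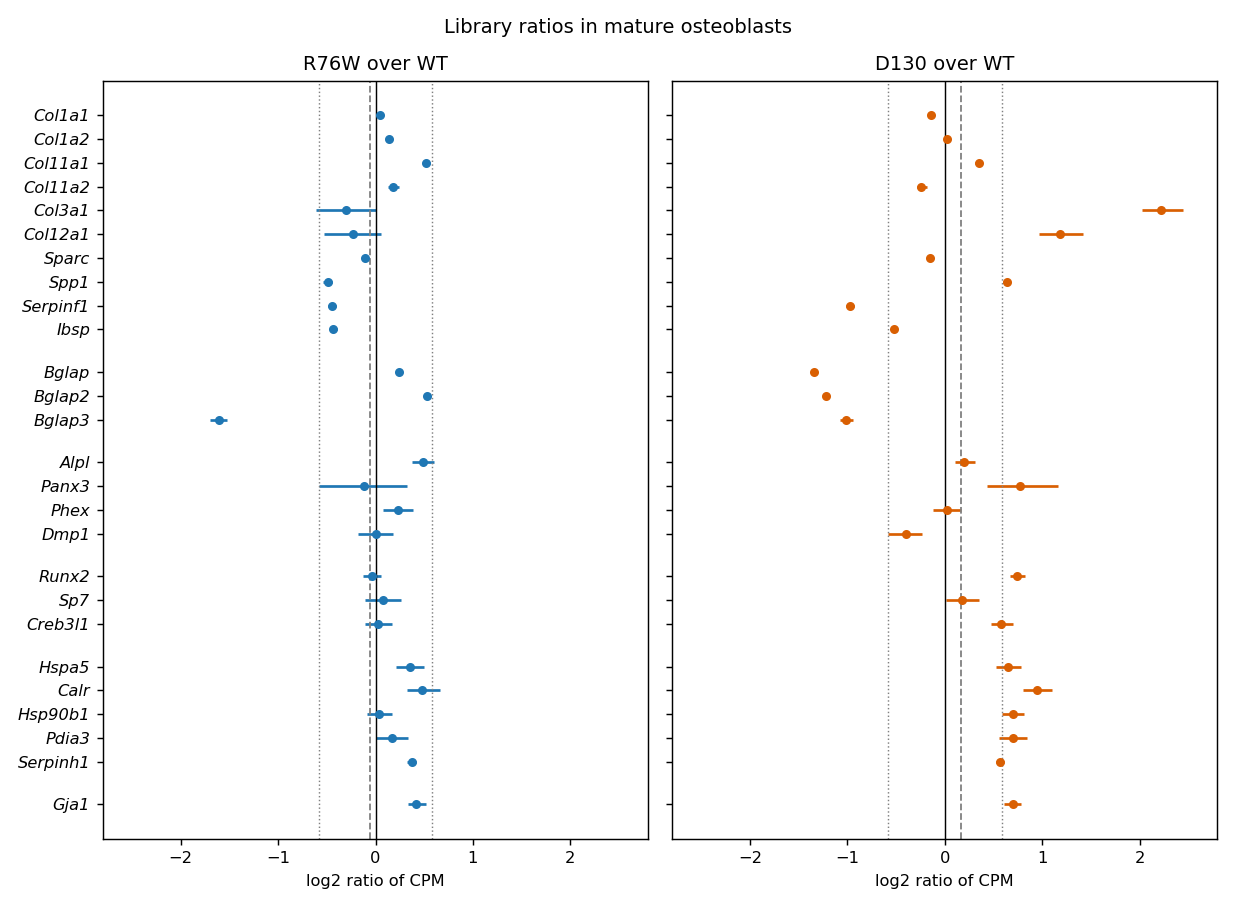
Log2 ratios of CPM in members (horizontal axis) for R76W over WT and D130 over WT, by gene, with 95% counting intervals. The dashed line is the median of all measured genes (−0.06 and 0.17) and the dotted lines mark 1.5-fold. Bglap and Bglap2 lie on the low side in D130 only, Bglap3 in both panels, and Col3a1 lies farthest to the high side in D130.

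A minority of secretory genes passed 1.5-fold in the mutants, all of them upward against WT. Of 40 genes of protein folding, transport and the unfolded protein response, all measured, R76W had 5 higher and 0 lower than WT (median 0.12) and D130 had 11 higher and 0 lower (median 0.38). With TMM scaling the counts were 7 and 0 for R76W and 5 and 0 for D130 (median 0.23), so D130 then had fewer than R76W. Hspa5, the main chaperone of the endoplasmic reticulum, was at 245.8, 313.8 and 386.8 CPM. Calr, the lectin chaperone calreticulin, was at 170.0, 238.1 and 328.5 CPM (0.95 for D130 over WT), and Hsp90b1 at 333.2, 341.9 and 541.1. Xbp1, a transcription factor of the unfolded protein response, was at 132.5, 140.4 and 202.3 CPM. Serpinh1, the collagen chaperone Hsp47, was at 2028.7, 2622.8 and 3010.9 CPM in members, and P4hb, a subunit of prolyl hydroxylase, at 272.4, 421.1 and 422.0.

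Immediate early genes, which cells induce within minutes of a stimulus and also during tissue digestion, lay on opposite sides of WT in the 2 mutant libraries. Of 21 measured, 13 were at least 1.5 times higher and 0 lower in R76W than in WT (median 0.73), and 2 were higher and 13 lower in D130 (median −1.01). Between the mutants, 0 were higher and 17 lower in D130 than in R76W (median −1.53). Fos, an AP-1 subunit, was at 1103.6 CPM in WT, 1718.4 in R76W and 471.0 in D130. Its partner gene Jun was at 376.5, 648.0 and 223.1, and Junb at 420.9, 607.9 and 179.9. Egr1, a zinc finger factor, was at 315.4, 615.9 and 139.7 CPM, and Atf3, a stress-induced factor, at 166.6, 297.6 and 48.7. Ier3 was at 102.4, 119.6 and 23.3 CPM (−2.09 for D130 over WT).

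Feedback genes of the same response followed that order. Zfp36, which destabilises inducible mRNAs, was at 187.8, 365.5 and 73.8 CPM, the phosphatase Dusp1 at 118.5, 196.6 and 43.0, and the nuclear receptor Nr4a1 at 35.5, 47.8 and 16.5. Klf4 did not: it was at 180.6, 318.7 and 277.1 CPM, higher than WT in both mutants (0.82 and 0.61). Egr3 was the other gene higher in D130 than in WT, at 2.05, 9.15 and 8.23 CPM. With TMM scaling the Klf4 ratio of D130 over WT was 0.47, under 1.5-fold. The list then had 1 gene higher and 13 lower in D130 than in WT. For the cAMP and CREB targets, which share Fos, Dusp1 and Nr4a1 with this list, 3 of 10 measured were higher and 1 lower in R76W than in WT, and 0 were higher and 3 lower in D130. The salt-inducible kinase Sik1 of that list was at 19.1, 40.8 and 9.83 CPM.

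Per cell, the summed immediate early list had a median of 21.3 UMIs per 10000 in WT members (quartiles 8.17 and 69.4), 63.5 in R76W (24.1 and 111.3) and 16.6 in D130 (7.65 and 36.6). The ranges overlapped. At 50 or more per 10000, a limit set with the values in view, stood 36 of 125 WT members (28.8%, 21.1% to 37.6%), 53 of 91 in R76W (58.2%, 47.4% to 68.5%) and 21 of 136 in D130 (15.4%, 9.82% to 22.6%). In LepR+ cells of the same libraries the order differed, with 22.1% in WT, 18.3% in R76W and 34.3% in D130. The summed list was at 5112.7, 8026.0 and 2784.4 CPM in members, 3859.0, 4337.4 and 3100.7 in Alpl and Wif1 stromal cells, and 5246.7, 5239.7 and 5577.5 in LepR+ cells. The difference between classes has no test with 1 library per genotype. Within members the sum hardly followed Bglap (Spearman 0.02, −0.06 and 0.09), but it followed total UMIs (0.36, 0.19 and 0.22) and ran against the mitochondrial share (−0.20, −0.27 and −0.28), both of which differed between libraries. Their part was not tested. The list's D130 over WT median was −0.66 in members under 100 Bglap per 10000 and −1.12 in those above. Time in digestion was not recorded in the labels, and its part was not tested.

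**Figure D5:**
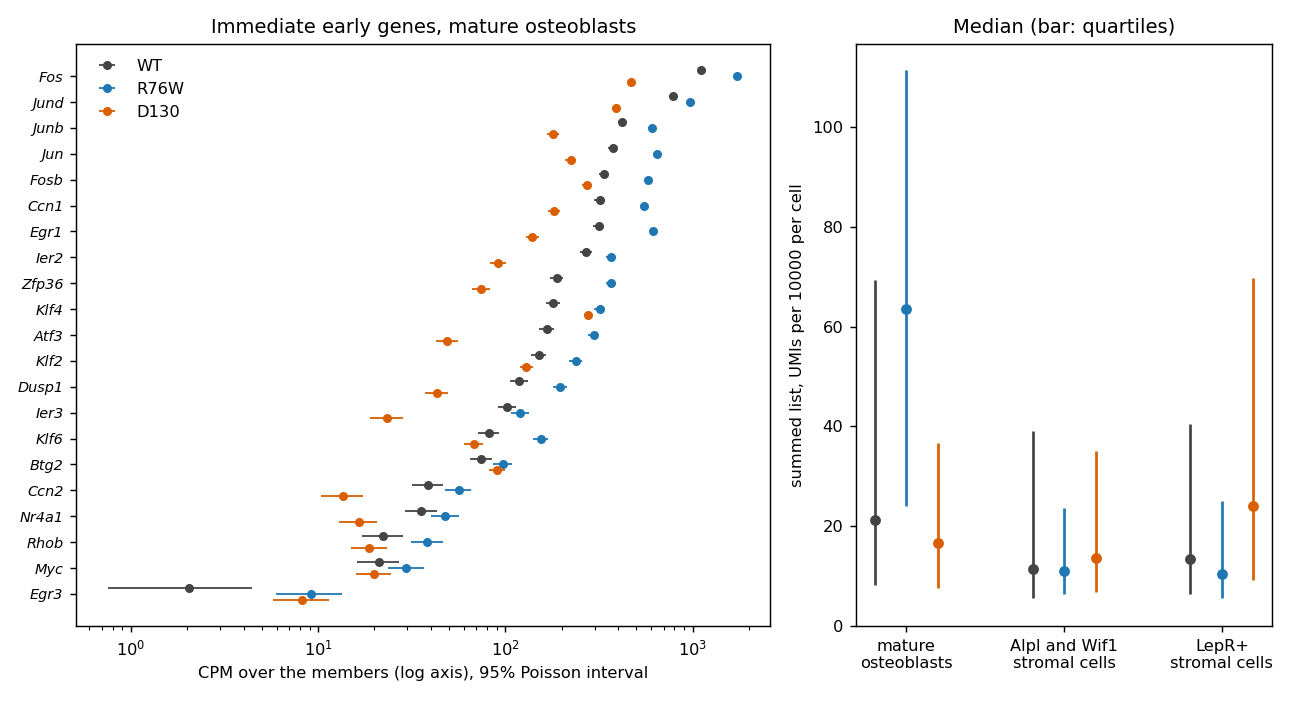
Immediate early genes: on the left, CPM over the members with 95% Poisson intervals (log axis), 1 colour per library. On the right, the median and quartiles over cells of the list's summed UMIs per 10000 in 3 cell classes. In members R76W points lie to the right of WT and most D130 points to the left, whereas the LepR+ medians are 13.5, 10.4 and 24.1 in WT, R76W and D130.

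Gja1, the transcript of connexin 43, was at 560.5 CPM in WT members (533.7 to 588.3), 752.8 in R76W (721.2 to 785.4) and 908.8 in D130 (880.7 to 937.5). The log2 ratios were 0.42 for R76W over WT, 0.70 for D130 over WT and 0.27 for D130 over R76W, and with TMM scaling 0.49, 0.55 and 0.06, all under 1.5-fold. A UMI was found in 99.2%, 95.6% and 98.5% of members. The mutants are transgenes directed to osteocytes, and 3′ counts do not tell a mutant from the native transcript, so these values check no label. Higher Gja1 in both mutants was not particular to members: it was at 738.2, 1170.6 and 1178.1 CPM in LepR+ cells and 1106.2, 1322.0 and 1755.2 in Alpl and Wif1 stromal cells. Of the other connexin and pannexin genes listed, Panx3 alone was measured.

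Osteocyte genes were present at low levels. Of 15 listed, 11 were measured, and Sost, the Wnt inhibitor made by mature osteocytes, and Fgf23, the phosphate hormone, had 0 UMIs in members of all libraries. Dmp1, an early osteocyte matrix protein, was at 175.5, 175.9 and 132.4 CPM, found in 51.2%, 45.1% and 54.4% of members. Mepe had 12, 2 and 14 UMIs. One D130 member stood apart. It had 4526 UMIs from 657 genes, with Gja1 at 298.3 per 10000, where the next highest D130 member had 43.0, Dmp1 at 201.1 and Phex at 24.3. Its Bglap was at 13.3. No other kept barcode of the 3 libraries had Gja1 at 100 or more per 10000. The highest WT member for Dmp1 had 111.1 per 10000. Without the highest member of each library, Dmp1 was at 134.7 CPM in WT, 149.5 in R76W and 111.7 in D130. Treated the same way, Gja1 was at 556.6, 737.1 and 878.8 CPM.

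The prostaglandin E2 pathway, named in the study's title, was sparsely expressed by members, with 6 of 13 listed genes measured. Pla2g4a, the cytosolic phospholipase that frees arachidonic acid, was at 32.1 CPM in WT (25.9 to 39.3), 22.9 in R76W (17.6 to 29.1) and 71.8 in D130 (64.1 to 80.2), a log2 ratio of 1.14 for D130 over WT. It was also a gene of low-Bglap members (Spearman −0.39, −0.42 and −0.42). The inducible cyclooxygenase Ptgs2 was found in 2.4%, 7.69% and 5.15% of members, at 6.14, 8.44 and 10.7 CPM with overlapping intervals. Hpgd, which inactivates prostaglandins, was at 348.2, 254.7 and 343.6 CPM. The receptor Ptger4 had 1, 7 and 1 UMIs, too few to compare.

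Hormone and cytokine receptors were level, with 0 of 21 measured genes past 1.5-fold in R76W and 1 higher and 1 lower in D130 than in WT. Pth1r, the receptor of parathyroid hormone, was at 331.1, 340.9 and 454.0 CPM. Among signals to osteoclasts, Tnfrsf11b (osteoprotegerin, the decoy for RANKL) was at 9.90, 7.74 and 19.9 CPM and Tnfsf11 (RANKL) had 11, 18 and 16 UMIs in all. Sema3a, a semaphorin that restrains osteoclasts, was at 18.1, 14.4 and 42.1 CPM (1.17 for D130 over WT), but its ratio among members at 100 or more Bglap per 10000 was −0.04. For the Wnt pathway, 1 of 19 measured genes was higher and 0 lower in R76W, and 5 were higher and 2 lower in D130 (4 and 4 with TMM scaling). In the BMP and TGF-beta list of 22 measured genes, 2 were higher and 0 lower in R76W, and 2 higher and 5 lower in D130 (1 and 7 with TMM scaling). Among the 5 was Id1, a direct BMP target, at 11.6, 13.4 and 2.97 CPM. Smad7, an inhibitory Smad, was at 42.7, 67.9 and 29.9 CPM.

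Among genes that met the naming limits given below, those with the highest ratios of R76W over WT included secreted and inducible products. Slpi, a leukocyte protease inhibitor, was at 10.6 CPM in WT, 47.8 in R76W and 6.63 in D130. Mt1, a metallothionein, was at 93.9, 310.3 and 106.8 CPM (1.71 for R76W over WT). Opa3 (1.75), Timp3 (1.65), Morrbid (1.52), Ppm1n (1.48) and Zswim4 (1.38) were also among the 8. For Timp3, an inhibitor of metalloproteases, 1 cell held 57.6% of the R76W UMIs, and the ratio was 0.74 without the top cells. Bglap3 was the lowest in R76W, followed by Lrmda (−1.07), Plxdc2 (−1.02), Car12, Plekhm3 (−0.98), Tnc (−0.97), 4933421O10Rik (−0.91) and Fxyd5 (−0.89). The Tnc ratio was 0.01 among members with Bglap at 100 or more per 10000. Over the alternatives given below, Plxdc2 ranged from −1.73 to −0.06 and Lrmda from −1.23 to −0.45. In WT, LepR+ cells held Lrmda, Plxdc2, Plekhm3 and Tnc at 516.1, 1887.5, 83.8 and 2114.0 CPM. Members held them at 58.0, 70.0, 23.2 and 318.8. Bglap3, Car12, 4933421O10Rik and Fxyd5 were instead lower in WT LepR+ cells than in WT members.

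In D130 over WT, the highest genes were S100a4, Adamts18, Ptn, Tnfaip6, Fmod, Col3a1, Ndnf and S100a6. Adamts18, a secreted metalloprotease, was at 8.19, 12.0 and 74.5 CPM in WT, R76W and D130 (3.04 for D130 over WT). It was found in 12.8%, 17.6% and 51.5% of members, with no cell over 6.44% of its D130 UMIs. Ptn, the growth factor pleiotrophin, was at 14.7, 23.6 and 98.8 CPM (2.67). The calcium-binding protein genes S100a6 and S100a4 were at 57.7, 55.9 and 241.2 CPM and at 5.80, 8.09 and 81.2 CPM. One D130 cell held 45.1% of the S100a4 UMIs, and the D130 over WT ratio went from 3.59 to 2.90 without the top cells. For Tnfaip6, a hyaluronan-binding protein, 1 cell held 67.5%, and the ratio went from 2.38 to 1.12. In members the lowest genes were Csmd1 (−2.12), Ier3 (−2.09), Atf3 (−1.75), Igfbp5 (−1.75), Adamts1 (−1.65), Bcl2l11 (−1.61), Ier2 and Gadd45b (−1.48). Of these 8, Ier3, Atf3 and Ier2 are in the immediate early list. Csmd1 was found in 9.60% of WT members, and 1 cell held 27.5% of its WT UMIs. In WT it was at 96.9 CPM in members and 4066.7 in LepR+ cells, and its D130 over WT ratio ranged from −3.40 to −0.87 over the alternatives. Igfbp5, an IGF-binding protein abundant in LepR+ cells (10007.0 CPM in WT), had a ratio of 0.25 when members with Cxcl12 at 10 or more per 10000 were left out.

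Between the mutants, D130 over R76W, S100a4 (3.18), Ndnf (2.90), Adamts18 (2.54), Col3a1 (2.52), Tnfaip6 (2.48), Col16a1 (2.43), Col6a3 (2.14) and S100a6 (2.09) were highest. Timp3 (−2.73), Slpi (−2.68), Atf3 (−2.59), Gm40193 (−2.57), Bcl2l11 (−2.39), Ier3 (−2.31), Zfp36 (−2.29) and Dusp1 (−2.17) were lowest. These comparisons share libraries with those to WT and are no separate evidence.

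RNA of other cells in members was low for most classes and uneven for a few. Endothelial markers summed to 3.41, 11.3 and 4.80 CPM in WT, R76W and D130, and none of the 10 was measured. Fibroblast and tendon markers summed to 52.9, 53.8 and 205.1 CPM, and the 4 higher in D130 were S100a4, Fmod, Thbs4 (4, 7 and 63 UMIs) and Scx (43, 35 and 110 UMIs), while Mkx was at 16.0, 13.4 and 13.0 CPM. Of the 6 not measured, Ly6a had 0, 0 and 11 UMIs, Dpt 3, 3 and 10, Tnmd 3, 0 and 10, Clec3b 2, 0 and 1, Pi16 0, 0 and 1, and Cilp 0 in all. Chondrocyte markers summed to 387.1, 905.1 and 348.9 CPM, nearly all Col2a1, with Col10a1 and Matn1 at 0. Of 3 measured, Sox9 (4.10, 8.09 and 12.6 CPM) and Hapln1 (4.44, 6.68 and 12.1 CPM) were higher and 0 lower in D130 than in WT (median 1.27), with Col2a1 within 1.5-fold. LepR+ markers summed to 994.7, 1082.7 and 677.6 CPM, against 53328.0, 49709.3 and 52968.3 in LepR+ cells. Of 15 measured, 8 were lower and 0 higher in D130 than in WT (median −0.62), but that median was 0.25 without members at 10 or more Cxcl12 per 10000. For R76W over WT the median went from 0.18 to −0.35 without them, and for D130 over R76W from −0.58 to 1.01. Among members with under 5000 UMIs, Cxcl12 was at that level in 12 of 13 in R76W, 0 of 4 in WT and 0 of 5 in D130.

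Erythroid RNA was highest in WT, where its marker sum was above that of the LepR+ markers. In R76W and D130 the LepR+ marker sum was the larger. Erythroid markers summed to 1066.8 CPM in WT members, 116.4 in R76W and 227.2 in D130, and all 9 measured were lower in R76W than in WT. The cell cycle list summed to 1154.5, 428.8 and 677.9 CPM. All 15 of its measured genes were more abundant in hemoglobin-rich barcodes than in members in every library, so its 14 lower genes in R76W are not read as a property of osteoblasts. The 26 sampled ribosomal protein genes were also all higher in hemoglobin-rich barcodes, and summed to 49430.7, 44465.1 and 53082.1 CPM in members. None of the osteoblast marker, bone matrix, transcription factor or immediate early genes measured was higher in hemoglobin-rich barcodes. The part of erythroid RNA in the counts over all genes was not tested beyond leaving such genes out.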

How the data were processed

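The deposited matrices hold whole-number UMI counts per gene and barcode, not normalized, which the authors made with Cell Ranger 7.0.1, per the file headers. Seurat and the build mm10 are named in the submitters' processing notes. Members, Alpl and Wif1 stromal cells (at least 1 UMI of each), LepR+ stromal cells (at least 1 Lepr UMI and Cxcl12 at 20 or more per 10000) and hemoglobin-rich barcodes (over 1% hemoglobin UMIs, Cxcl12 and Col1a1 each under 5 per 10000) were gated in that order with Python 3.11.15, numpy 2.4.6 and scipy 1.17.1. Counts were summed over the cells of a class and divided by their total (CPM). CPM carry exact Poisson intervals, shares Clopper-Pearson intervals, and ratios conditional binomial intervals. Reads were not used, so intervals cover counting error between molecules only. Log2 ratios are on CPM plus a pseudocount of 1. The ratio calculation was run on simulated Poisson counts with known ratios. These had no variation between cells, so that run checks the calculation only. A fitted test across libraries was not possible with 1 library per genotype, and cells are not replicates.

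The members, the 37 gene lists and the limits were chosen with earlier results of these data known. Of 612 listed genes, 3 (Cyr61, Ctgf and Ly76) did not match a name in the files. Named genes are the 8 highest and 8 lowest ratios in each pair of libraries among genes with at least 100 UMIs in that pair, UMIs in at least 20 members and intervals that do not overlap. Mitochondrial, ribosomal, hemoglobin, immunoglobulin and sex-linked genes and those more abundant in hemoglobin-rich barcodes were left out. Against LepR+ and Alpl and Wif1 cells the 15 and 8 highest were taken, and listed genes were named under their list. The text also names genes of a list's counts chosen after their values were seen, and some genes that the rules named are not reported here.

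Gene coordinates are from GENCODE M21 (GRCm38) and promoters from RefSeq (GRCm38.p6). Of 3 osteocalcin genes asked, 2 had promoter entries. Doublets were kept in the main values. Scrublet (scanpy 1.11.5) marked 0 WT barcodes automatically, so the 153 top scores were left out there, with 15 in R76W and 32 in D130, as an alternative. These held 5, 1 and 4 members. Thinning to 2000 UMIs left 123, 84 and 134 members. TMM factors came from edgeR 4.0.16 in R 4.3.3.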

Additional observations from a re-analysis of the deposited data

How the results depend on the processing

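No paired analysis was possible because each genotype is 1 library. Over the cell choices tried, the WT library had between 112 and 132 members, the R76W library between 74 and 92 and the D130 library between 117 and 143, and their stromal shares stayed within the binomial intervals of the main values. The medians of the bone matrix, mineralisation, transcription factor and secretory lists moved by less than 1.5-fold under every alternative run, but medians near 0 changed sign: mineralisation ranged from −0.06 to 0.23 and noncollagenous matrix from −0.06 to 0.21 for D130 over WT, and collagens from −0.10 to 0.20 and mineralisation from −0.04 to 0.21 for D130 over R76W. For R76W over WT mineralisation ranged from −0.17 to 0.19, transcription factors from −0.10 to 0.14 and collagens from −0.11 to 0.10. Alternatives on member depth, Cxcl12, Bglap level, 1 cell left out and genes of hemoglobin-rich barcodes were chosen after seeing the data. The cause of the changes below was not tested, except that thinning, other minimums and leaving genes out change how many genes can pass.

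Counts of genes past 1.5-fold are given as higher and lower, in the order R76W over WT, D130 over WT and D130 over R76W. They were 108 and 144, 188 and 78, and 230 and 70 with members thinned to 2000 UMIs. With a pseudocount of 10 CPM they were 137 and 215, 331 and 153, and 440 and 181. With no minimum of UMIs they were 1712 and 2213, 2379 and 1404, and 2932 and 1303, and with at least 200 UMIs 152 and 253, 484 and 130, and 584 and 141. TMM gave 581 and 565 for D130 over WT and 682 and 606 for D130 over R76W. The mean over cells gave 889 higher for R76W over WT and 716 lower for D130 over R76W. Members with Bglap at 100 or more gave 693 higher for D130 over WT and 711 for D130 over R76W, with an immediate early median of −1.87 for the latter. Without genes higher in hemoglobin-rich barcodes, 224 were lower for R76W over WT, 188 lower for D130 over WT and 722 higher for D130 over R76W.

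The immediate early medians ranged from 0.62 to 0.80, −1.16 to −0.75 and −1.87 to −1.41 over all alternatives. The Bglap ratios ranged from 0.13 to 0.30, −1.49 to −0.86 and −1.78 to −0.99.

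A value is called reversed here when it was at least 1.5-fold in the main values and changed sign. List medians that reversed were those of the cell cycle for D130 over WT (0.39 with hemoglobin up to 0.1%) and of LepR+ markers for D130 over WT (0.17 without Scrublet doublets, 0.25 without members at 10 or more Cxcl12 per 10000). Smaller LepR+ medians also changed sign, ranging from −0.58 to 1.55 for R76W over WT and from −2.11 to 1.01 for D130 over R76W. Gene ratios reversed for Csmd1, D130 over R76W (0.10 with Col1a1 at 50 or more), Ndnf, R76W over WT (0.14 with Col1a1 at 200 or more and 0.60 with Bglap at 100 or more), and Igfbp5, D130 over WT (0.23 without Scrublet doublets, 0.25 with low Cxcl12) and D130 over R76W (1.76 with low Cxcl12). With Bglap at 100 or more they reversed for Tnc, R76W over WT (0.01), Col6a1, D130 over WT (−0.12) and Sema3a, D130 over WT (−0.04). Postn, D130 over WT, was −0.11 as a mean over cells and −0.03 when thinned. Thinning also reversed 4933421O10Rik (0.52), Morrbid (−0.03) and Ptn (−0.18) for R76W over WT and Col6a3 (−0.03) and Col16a1 (−0.50) for D130 over WT. Of 113 ratios of genes named in the text that were under 1.5-fold, 54 changed sign under some alternative, and 15 then passed 1.5-fold. Among the 15 were, for R76W over WT, Igfbp5 (0.21 to −1.51 with low Cxcl12), S100a4 (0.42 to −1.30 with Bglap at 100 or more) and Csmd1 (−0.49 to 1.28 without Scrublet doublets), and, for D130 over WT when thinned, Smad7 (−0.50 to 1.23) and Morrbid (0.34 to −1.59). Depth limits genes under about 10 CPM, whose ratios rest on few UMIs.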

Other observations

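Several gene groups outside the comparisons above were read in members as values only. Of 15 measured glycolysis genes, 6 passed 1.5-fold upward and 2 downward in D130 relative to R76W (median log2 ratio 0.49, against 0.24 for all genes), but with TMM scaling 1 was higher and 3 lower. Of the 15, 7 were more abundant in hemoglobin-rich barcodes. Of 17 measured matrix proteases and inhibitors, 5 were higher and 0 lower in R76W than in WT, and 4 were higher and 4 lower in D130 than in WT. Interferon response genes had medians of −0.01 for R76W over WT and 0.00 for D130 over WT over 14 measured genes (0.05 and −0.13 with TMM scaling). Nuclear genes of oxidative phosphorylation had medians of −0.25 and 0.04 (−0.18 and −0.11 with TMM scaling) over 30 genes, 27 of them more abundant in hemoglobin-rich barcodes.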
